A study of Mus musculus with 6 samples.

Results

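The histone genes were compared between the prefrontal cortex of aged mice with a postoperative neurocognitive disorder model (PND) and that of control mice (CON). The members were all protein-coding genes whose mouse symbol follows a histone naming pattern (Hist1h to Hist4h, H1f, H2af, H3f and their newer forms). In GENCODE M21, 82 protein-coding genes had such a symbol, and 64 of them had a row among the 21006 genes measured. The other 18 were not analysed here. Of the 64 members, 53 are replication-dependent genes (5 of H1, 13 of H2A, 14 of H2B, 8 of H3 and 13 of H4), 10 are replacement genes, and 1, Hist1h1t, is the linker histone of the testis.

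The mice were male C57BL/6 of 18 months. The 3 PND mice breathed 1.5% isoflurane for 30 min and then had an exploratory laparotomy of 30 min under it. The 3 CON mice had neither at that stage, so operative anesthesia and operation cannot be told apart. Per the methods, isoflurane was also used on the mice, with no group excepted, before the tissue was taken. Each sample came from 1 mouse, out of 13 in each group of the study, and the cortex was removed after a Barnes maze session. Levels were given as FPKM, fragments per kilobase of exon scaled to depth, which can be compared between genes. Steps among the low FPKM gave estimated depths of 7210622 to 9383523 fragments per mouse.

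DNA in the nucleus is wrapped around an octamer of the core histones H2A, H2B, H3 and H4, and the linker histone H1 binds where the DNA enters and leaves. Replication-dependent histone genes are arranged in clusters and are transcribed mainly in S phase, and their mRNAs end in a conserved stem-loop instead of a poly(A) tail. Replacement histones such as H3.3, H2A.Z and macroH2A are made outside S phase from polyadenylated mRNAs, and they are the main supply of new histone in cells that no longer divide, such as neurons.

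The 2 classes differed in their genes as annotated. The replication-dependent members had a median merged exon length of 614 bases, against 1943 bases for the replacement members and 3783 bases for all genes tested. Their median GC content was 56.2%, against 51.5% and 48.4%. A single exon was annotated for 48 of the 53 replication-dependent and for 4 of the 10 replacement members. The replication-dependent members lay on chromosome 13 (40, from 21715763 to 23764406 on GRCm38), chromosome 3 (10, from 96219865 to 96270132), chromosome 11 (2) and chromosome 6 (1).

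The stem-loop is the sequence that marks the replication-dependent class. The letters GGNNCTNTTNAGNNCC were searched on the sense strand within 100 bases after the stop codon in the GENCODE M21 transcripts. They were found in 36 of the 53 replication-dependent members and in 1 of the 10 replacement members, H2afx. Among 19934 protein-coding genes with 100 bases after a stop codon, 30 held these letters, and 24 of those were members. Of the replication-dependent members, 9 had no transcript model with as many as 16 bases, the length of the motif, after the stop codon. The models of Hist2h3b, Hist1h1a and Hist1h3g ended 37, 48 and 95 bases after it. In all of these a motif farther on could not be seen. Hist1h2bc, Hist2h2be, Hist1h2bq, Hist1h2br and Hist1h4a had a full window of 100 bases, and the letters were not found in it. The loops of those of the 12 most abundant replication-dependent members that have one, of Hist1h4f and Hist2h3c1, which are described below, and of H2afx are shown, with the motif in capitals. In each, the first 6 and the last 6 capitals pair, and the genes differ in the stem and in the loop between.
Hist1h4d: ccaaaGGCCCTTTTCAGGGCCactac
Hist1h4m: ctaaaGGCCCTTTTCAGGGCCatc
Hist1h4f: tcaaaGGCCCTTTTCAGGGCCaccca
Hist1h4b: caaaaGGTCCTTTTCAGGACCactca
Hist2h4: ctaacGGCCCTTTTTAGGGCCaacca
Hist1h4n: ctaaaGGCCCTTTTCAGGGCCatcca
Hist2h2ac: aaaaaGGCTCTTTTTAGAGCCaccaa
Hist2h2aa1: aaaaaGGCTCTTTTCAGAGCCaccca
Hist3h2a: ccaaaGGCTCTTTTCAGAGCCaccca
Hist1h1d: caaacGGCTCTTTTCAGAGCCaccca
Hist2h3c1: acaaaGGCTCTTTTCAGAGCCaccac
H2afx: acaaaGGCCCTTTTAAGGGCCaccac

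The promoters of both classes were also searched, in RefSeq windows of 300 bases (GRCm38.p6) placed around RefSeq's own start of each gene, which were found for 59 members, with 2 windows for Hist1h2be. On either strand, TATAAA was present in 56.0% of 50 replication-dependent windows, 11.1% of 9 replacement windows and 13.6% of all 32851 windows. CCAAT was present in 82.0%, 66.7% and 37.4% of them. ATTTGCAT, the octamer motif known from H2B promoters, was present in 18.0%, 11.1% and 1.74%. By family, ATTTGCAT was in 5 of 13 H2A windows and 4 of 13 H2B windows and in none of H1, H3 or H4. CCAAT was in all windows of H1 (5 of 5), H2A (13 of 13), H2B (13 of 13) and H3 (7 of 7), but in 3 of 12 windows of H4. The promoters of the 2 most highly expressed members in which PND and CON did not overlap are shown, an H2B window at chr3:96269450-96269749 (plus strand) with CCAAT and ATTTGCAT, and an H4 window at chr13:21811496-21811795 (plus strand) with TATAAA and no CCAAT. RefSeq's start is not always the GENCODE one, and the Hist2h2bb window ends before its GENCODE model begins. The capitals mark the motifs on either strand, and no binding was measured.
Hist2h2bb: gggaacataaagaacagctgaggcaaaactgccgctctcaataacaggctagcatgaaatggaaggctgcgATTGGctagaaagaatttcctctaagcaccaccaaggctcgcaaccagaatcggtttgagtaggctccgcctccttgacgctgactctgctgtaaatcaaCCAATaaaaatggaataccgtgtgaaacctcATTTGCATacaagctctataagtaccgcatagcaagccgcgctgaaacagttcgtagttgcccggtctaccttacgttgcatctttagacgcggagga
Hist1h4m: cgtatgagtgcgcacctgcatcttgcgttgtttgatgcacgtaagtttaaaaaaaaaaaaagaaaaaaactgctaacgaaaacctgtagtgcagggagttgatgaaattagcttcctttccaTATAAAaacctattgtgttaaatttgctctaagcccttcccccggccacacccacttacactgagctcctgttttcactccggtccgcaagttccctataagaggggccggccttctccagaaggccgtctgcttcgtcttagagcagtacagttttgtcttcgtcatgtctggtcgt

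None of the 10 replacement members passed the cut-off of the study, an absolute log2 fold change above 1 with an unadjusted p below 0.05, which 1.33% of all 18185 genes tested passed. H3f3b, which encodes H3.3, had the highest level of the class, 16.8, 15.1 and 16.7 FPKM in the PND mice and 15.9, 13.0 and 15.5 FPKM in the CON mice. The groups overlapped, and the log2 fold change (PND minus CON, on log2(FPKM + 0.1)) was 0.13 ± 0.12 (SE; limma, 95% interval -0.16 to 0.42). Since the tissue is a mixture, fewer cells of a type and less RNA per cell cannot be told apart, here and below. H1f0, the linker histone of non-dividing cells, came next with 13.8, 10.1 and 17.5 FPKM in PND and 8.23, 12.8 and 12.2 FPKM in CON. Its highest value was in PND 3 and its lowest in CON 1, and the difference was 0.31 ± 0.25 (95% interval -0.27 to 0.88). In the order of mean level, H3f3b (15.5 FPKM) and H1f0 (12.4 FPKM) overlapped in their ranges.

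H3f3a, the other H3.3 gene, was measured at 6.03, 5.65 and 5.31 FPKM in PND and 7.30, 4.94 and 5.73 FPKM in CON. The PND mice lay within the range of the CON mice (log2 fold change -0.06, 95% interval -0.47 to 0.35). H2afv, which encodes an H2A.Z protein, had 5.12, 4.81 and 5.48 FPKM in PND and 5.56, 4.36 and 4.005 FPKM in CON. The macroH2A genes H2afy2 and H2afy, which encode variants with a large non-histone domain, had means of 4.61 and 4.6 FPKM, and with H2afv (4.89 FPKM) they could not be ordered beyond their spread. H2afy2 had the smallest p of the class (4.63, 4.48 and 3.62 FPKM in PND, 4.23, 5.64 and 5.05 FPKM in CON; log2 fold change -0.22, 95% interval -0.63 to 0.19). For H2afy the difference was -0.10, with an interval of -0.44 to 0.24.

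The remaining replacement members were lower and less certain. H2afj, of the H2A family, had a mean of 1.52 FPKM, and its difference of -0.38 had an interval of -1.29 to 0.54. H2afx, whose product is phosphorylated at DNA breaks, ranged from 0.980 to 1.65 FPKM in PND and from 0.904 to 2.31 FPKM in CON (log2 fold change 0.09, interval -0.83 to 1.01). Also measured, and named because of their values, were H2afz, the other H2A.Z gene, at a mean of 0.746 FPKM, and the linker histone gene H1fx, at 0.512 FPKM. For both of these the interval reached beyond 1 in each direction (-1.13 to 1.01 and -1.35 to 1.26). H2afz shares 58.8% of its 100-base stretches with 4 other genes. Every replacement member had an adjusted p of 1 (limma, Benjamini-Hochberg).

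**Figure D1:**
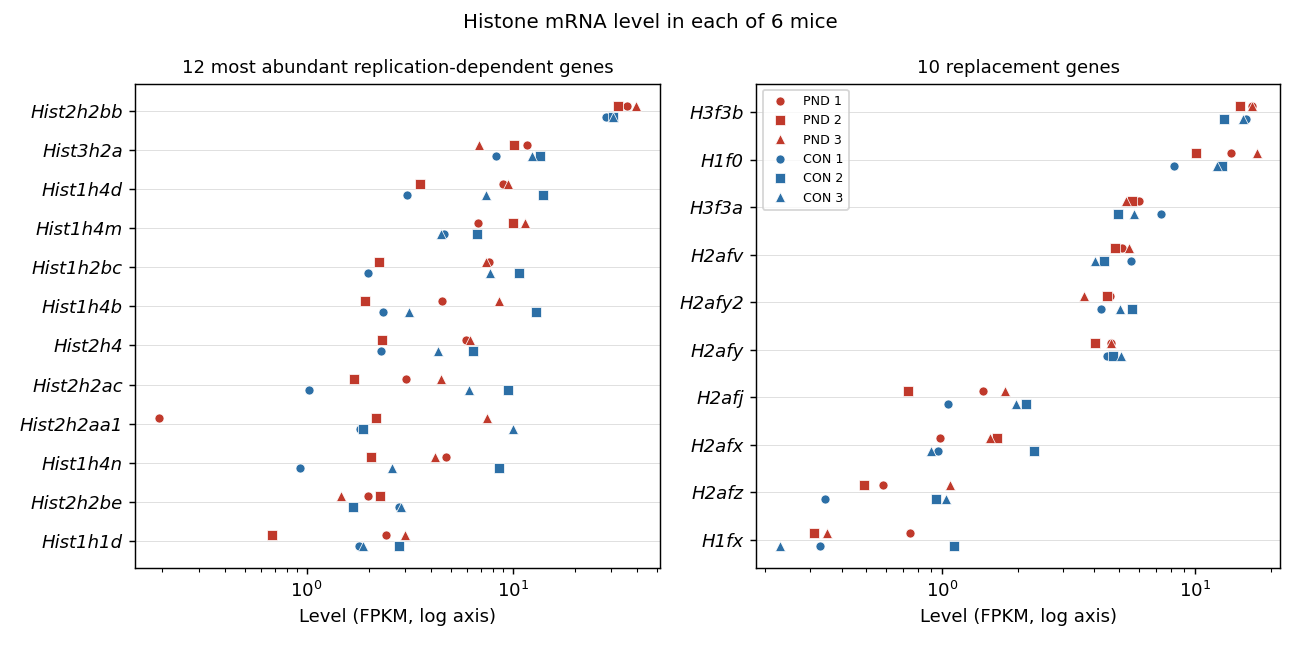
Level of the 12 replication-dependent genes with the highest means (left) and of all 10 replacement genes (right) in each mouse, as FPKM on a log axis, with 1 point per mouse (PND red, CON blue). The upper 6 replacement genes have narrower ranges than most, and many replication-dependent genes are low in CON 1 and PND 2.

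Among the replication-dependent members, Hist2h2bb stood above all others at a mean of 32.8 FPKM, followed by Hist3h2a at 10.5 FPKM. A mean of at least 1 FPKM was reached by 25 of the 53, and 23 were listed at 0 in at least 1 mouse, against none of the 10 replacement members. Over the 6 mice, 37 of the 53 had fewer than 60 estimated fragments in all. A stretch of 100 bases shared with another gene was found in 48 of the 53, and exons overlapping another gene in 19. Among the 10 replacement members these numbers were 8 and 7. Since the use of strand and the treatment of shared reads were not stated, the levels of such members of both classes are uncertain.

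Hist2h2bb (ENSMUSG00000105827, chr3:96269752-96270132), an H2B gene, was higher in every PND mouse (35.6, 32.2 and 39.4 FPKM) than in any CON mouse (28.4, 30.6 and 30.65 FPKM). The gap between the groups was small beside the range within PND. The log2 fold change was 0.25 ± 0.11 (95% interval -0.01 to 0.51). All 381 bases of its model lie antisense to Gm20628, which was at 0.551 to 1.17 FPKM, and 226 bases overlap Gm42743 on the same strand.

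Hist1h4m (ENSMUSG00000069306, chr13:21811746-21812147), an H4 gene, was measured at 6.75, 10.1 and 11.4 FPKM in PND and at 4.65, 6.72 and 4.50 FPKM in CON. The groups did not overlap, although PND 1 and CON 2 nearly met. The difference was 0.81 ± 0.24 on the log2 scale (95% interval 0.24 to 1.38), and the adjusted p (limma, Benjamini-Hochberg) was 1. Of its 100-base stretches, 88.1% also occur in 8 other H4 genes. Among those, Hist1h4n, which shares 80.7% of its stretches, had 4.73, 2.06 and 4.21 FPKM in PND and 0.931, 8.56 and 2.59 FPKM in CON, and there the lowest and the highest mouse were both CON.

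The cut-off was passed by 2 of all 60 members tested, 1 higher and 1 lower in PND, beside 1.33% of all genes (0.841% higher and 0.484% lower). Hist1h4f (ENSMUSG00000069274, chr13:23551258-23551648) had 1.74, 1.29 and 6.27 FPKM in PND, and 0, 2.51 and 0 FPKM in CON. The groups overlapped, since CON 2 was above PND 1 and PND 2, and the gene had 41 estimated fragments in all. Its log2 fold change was 3.09 ± 1.28 (95% interval 0.10 to 6.09), and its adjusted p (limma, Benjamini-Hochberg) was 1. The call was lost when any of PND 1, PND 2, PND 3, CON 1 and CON 3 was left out, with log2 fold changes from 2.31 to 3.53, and with voom on estimated fragments (2.58). It was also lost with the replicate block and without the trend (both 3.09), with a minimum mean of 1 FPKM (3.09) and with a pseudocount of 1 (1.23).

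Hist1h2bl (ENSMUSG00000094338, chr13:21715763-21716143), an H2B gene, was listed at 0 in all PND mice and at 1.40, 0.322 and 0.365 FPKM in CON. These values stand for 6.0 estimated fragments in CON. The CON mean was 2.31-fold a floor of 3 fragments over the PND group. This floor covers the counting error of the PND zeros only, not that of the fragments in CON. The ratio rested on CON 1, and without that mouse it was 1.14-fold. The adjusted p (limma, Benjamini-Hochberg) was 0.787, the smallest of all members. In 62.1% of its 100-base stretches the sequence is shared with other H2B genes, and its model ends at the stop codon.

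At an unadjusted p below 0.05, 3 of the 60 tested members differed (Hist1h2bl, Hist1h4m and Hist1h4f), or 2 higher and 1 lower, beside 3.13% of all genes (1.73% higher and 1.4% lower). None had an adjusted p below 0.05 (limma, Benjamini-Hochberg), beside 0.011% of all genes, and voom gave 2 members with an unadjusted p below 0.05 and none after adjustment. Non-overlapping groups were found for 3 members with PND above (Hist2h2bb, Hist1h4m and Hist1h2bf) and 3 with CON above (Hist1h2be, Hist1h2bb and Hist1h2bl), beside 3.78% and 3.88% of all genes. Hist1h2bf and Hist1h2be are named here because of these values. All but Hist1h4m of these 6 encode H2B. The counts rested on few mice, since without CON 1 the cut-off was passed by 7 members, all lower in PND (beside 0.797% of genes), and without PND 2 by 3 that were higher and 1 that was lower (beside 0.995% and 0.517%). After correction for GC content, 1 member was higher and 3 were lower (beside 0.858% and 0.555%).

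Hist1h2bb, an H2B gene, had 0.250, 0.280 and 0.236 FPKM in PND and 0.590, 1.63 and 0.308 FPKM in CON. CON 3 lay just above the PND mice (log2 fold change -1.15 ± 0.53, 95% interval -2.39 to 0.09), and with GC correction the gene passed the cut-off at -1.23. Hist1h2bj, also of H2B, was listed at 0.732, 0 and 0.230 FPKM in PND and at 0 in all CON mice, from 4.0 estimated fragments. Hist1h2bf was at 1.47, 1.097 and 0.924 FPKM in PND and 0.289, 0.799 and 0.905 FPKM in CON (log2 fold change 0.82, interval -0.15 to 1.78). Hist1h2be went the other way by a small amount, from 1.211, 1.47 and 1.34 FPKM in CON to 1.205, 0.984 and 1.12 FPKM in PND (log2 fold change -0.26, interval -0.76 to 0.25).

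**Figure D2:**
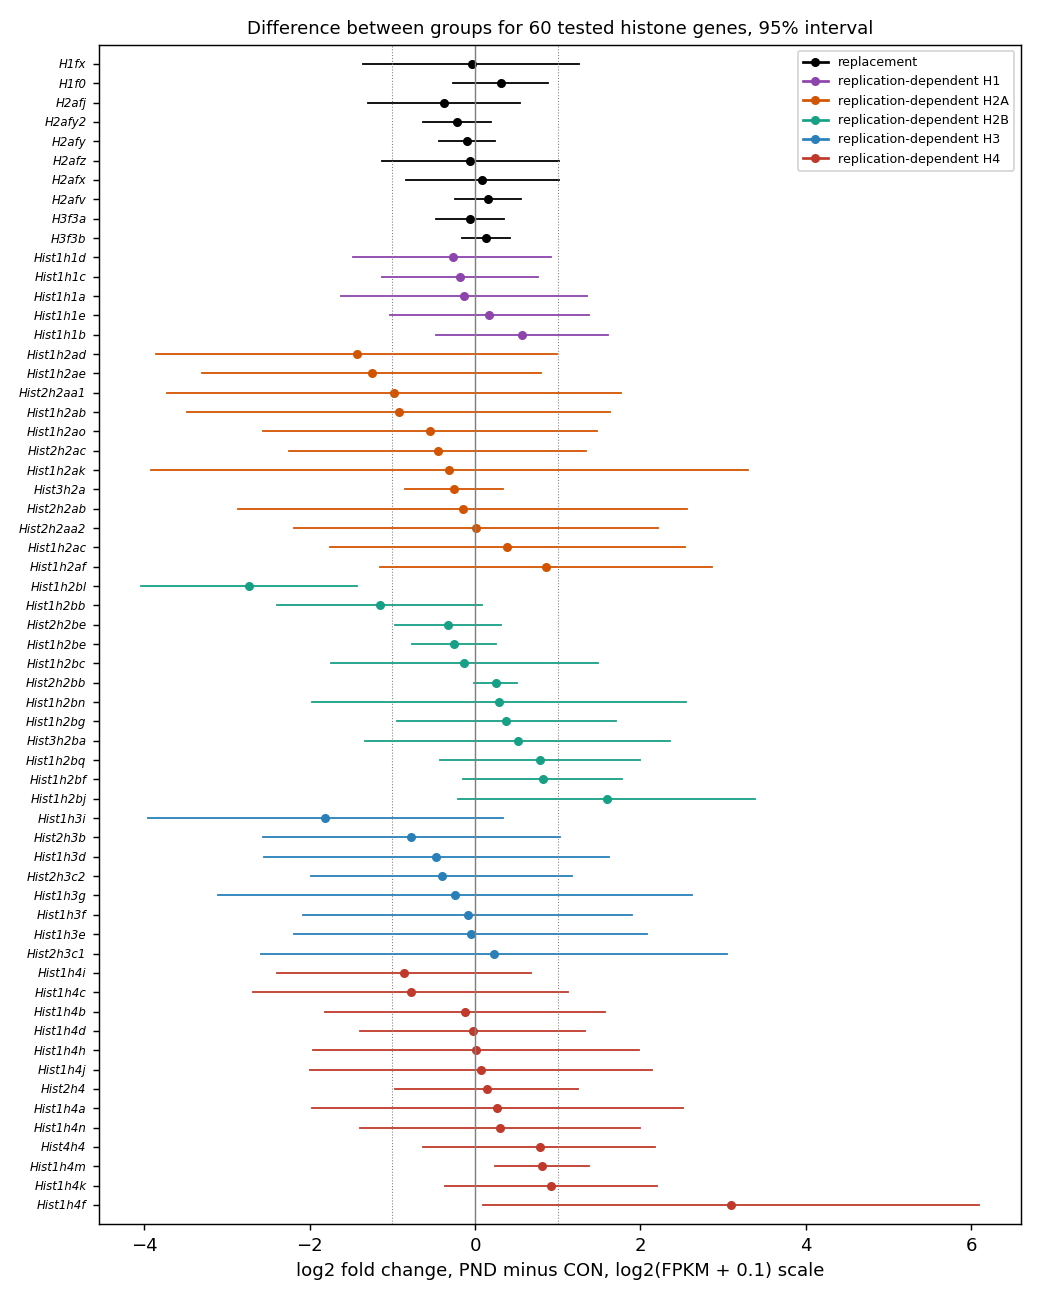
log2 fold change, PND minus CON, of the 60 tested histone genes with its 95% interval from limma, grouped by class and family. The dotted lines mark a change of 1 in either direction, and the intervals of Hist1h2bl, Hist1h4m and Hist1h4f alone leave out 0.

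The other abundant replication-dependent members varied widely within both groups. Hist3h2a, an H2A gene outside the large clusters, had 11.7, 10.1 and 6.85 FPKM in PND and 8.27, 13.5 and 12.4 FPKM in CON (log2 fold change -0.26, interval -0.85 to 0.34), and 708 of its bases overlap Trim17 on the same strand. Hist1h4d, an H4 gene that shares no 100-base stretch with another gene, had 8.92, 3.54 and 9.49 FPKM in PND and 3.06, 14.1 and 7.43 FPKM in CON. CON 1 and PND 2 were its lowest mice and CON 2 its highest, and the group means differed by -0.03 on the log2 scale (interval -1.39 to 1.33).

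The same order of mice was seen in genes of other families and on another chromosome. Hist1h2bc (H2B, chromosome 13) had 7.68, 2.23 and 7.38 FPKM in PND and 1.99, 10.7 and 7.74 FPKM in CON. Hist2h4 (H4, chromosome 3) had 5.90, 2.33 and 6.21 FPKM in PND and 2.29, 6.40 and 4.35 FPKM in CON. Hist2h2ac (H2A, chromosome 3) had 3.04, 1.70 and 4.51 FPKM in PND and 1.03, 9.44 and 6.15 FPKM in CON. In each, CON 1 was the lowest mouse, PND 2 the next and CON 2 the highest, so the group difference had a wide interval on either side of 0 (for Hist2h2ac -2.25 to 1.34). Hist1h4b, at 4.56, 1.91 and 8.59 FPKM in PND and 2.35, 13.0 and 3.15 FPKM in CON, had its lowest value in PND 2.

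Other abundant members did not follow it as closely. Hist1h1d, a linker histone gene, was at 2.43, 0.680 and 3.01 FPKM in PND and 1.79, 2.80 and 1.87 FPKM in CON, where PND 2 alone lay apart. Hist2h2be, an H2B gene with a long model of 2620 bases and no shared stretch, was at 1.99, 2.27 and 1.46 FPKM in PND and 2.80, 1.69 and 2.87 FPKM in CON, with its lowest value in PND 3 (log2 fold change -0.33, interval -0.97 to 0.31).

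The summed level of the 53 replication-dependent members was 127, 87.8 and 152 FPKM in PND and 77.4, 171 and 126 FPKM in CON. Both the lowest and the highest mouse were CON, and the mean ± SD of 3 mice was 122 ± 32.2 FPKM for PND and 125 ± 46.7 FPKM for CON. The difference between the groups in the mean of the log2 sums was 0.01, opposite in sign to that of the means of FPKM, while the highest mouse was 2.21 times the lowest. The 10 replacement members summed to 54.8, 47.3 and 58.0 FPKM in PND and 48.4, 52.0 and 51.7 FPKM in CON, a difference in the mean of the log2 sums of 0.07 and a range of 1.23 times. The ratio of the 2 sums was 2.33, 1.85 and 2.61 in PND and 1.60, 3.28 and 2.44 in CON, which overlapped.

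The direction was divided within both classes. Of 50 replication-dependent members tested, 22 were higher and 28 lower in PND with a median log2 fold change of -0.11, and of 10 replacement members 4 were higher and 6 lower with a median of -0.05. Over all genes the median was 0.01, and 52.4% of genes were higher in PND. By family, 9 of 13 H4 members were higher (median 0.14), 7 of 12 H2B members were higher (0.27), 9 of 12 H2A members were lower (-0.38), 7 of 8 H3 members were lower (-0.32) and 3 of 5 H1 members were lower (-0.13). The sign of the class median turned with single mice: without CON 1 the median of the replication-dependent members was -0.47, and without PND 2 it was 0.37.

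**Figure D3:**
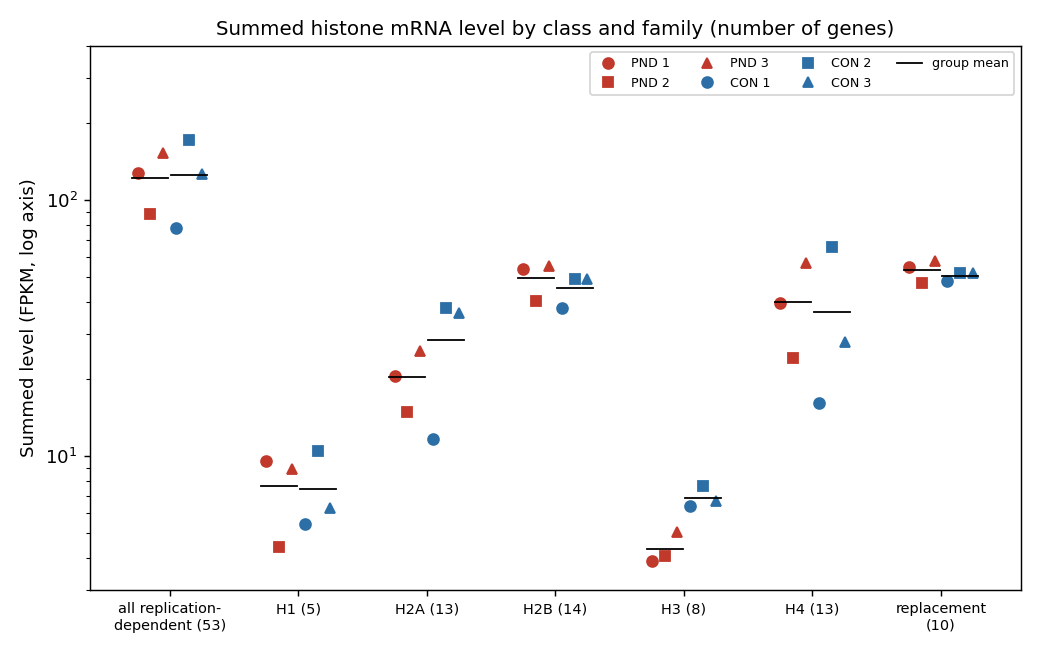
Summed level of the replication-dependent members, of each of their families and of the replacement members in each mouse, as FPKM on a log axis, with group means as bars. The replication-dependent sum runs from 77.4 FPKM in CON 1 to 171 FPKM in CON 2, the replacement sum from 47.3 to 58.0 FPKM.

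The families differed in how far the mice lay apart. The H4 sum was 39.5, 24.1 and 56.8 FPKM in PND and 16.1, 65.6 and 28.0 FPKM in CON, a 4.06-fold range, which was 2.36-fold after correction for GC content. The H2B sum, most of which was Hist2h2bb, ranged 1.46-fold, or 1.21-fold after correction. The H2A sum was 20.5, 14.9 and 25.8 FPKM in PND and 11.7, 37.7 and 36.1 FPKM in CON, a 3.24-fold range (2.55-fold after correction). The H1 range was 2.38-fold (1.94-fold after correction), while that of H3 widened from 1.97-fold to 2.21-fold. The replication-dependent sum without Hist2h2bb ranged from 49.0 FPKM in CON 1 to 140 FPKM in CON 2, and that of the 34 members with no overlapping gene from 26.6 to 84.3 FPKM.

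The mice with low levels were the same across most of the class. The lowest value was in CON 1 or PND 2 with no tie for 30 of the 53 replication-dependent members (56.6%), for 4 of the 10 replacement members and for 42.1% of all genes tested. Counting ties, which here are members listed at 0 in other mice as well, it was 44 of the 53 (83.0%) and 45.3% of all genes, and 43.4% of the class but 8.35% of all genes were listed at 0 in at least 1 mouse. Both of these mice lay below both CON 2 and PND 3 for 32 of the 53 (60.4%), against 33.9% of all genes. Of the 53, 19 were listed at 0 in PND 2 and 16 in CON 1, and between 2 and 8 in each of the other mice. The median deviation from the gene mean, on the log2 scale, was 0.33, -0.83 and 0.55 in the PND mice and -0.78, 0.63 and 0.14 in the CON mice.

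Genes rich in GC moved with the same mice. In the tenth of genes with the highest GC content (1233 genes, median 58.5%), the median deviation was 0.11, -0.30 and 0.37 in PND and -0.56, 0.49 and -0.03 in CON. In 179 protein-coding genes of up to 1000 bases of exon it was between -0.13 and 0.26, and in the replacement members between -0.23 and 0.19. CON 1 was instead the highest mouse in the tenth of genes with the lowest GC content (0.20), in the 59 short genes with 40 to 50% GC (0.13) and in the replacement members after GC correction (0.16). After correction of each mouse for GC content, the replication-dependent deviations were 0.24, -0.57 and 0.28 in PND and -0.27, 0.43 and 0.15 in CON. The corrected sum ranged 1.39-fold, from 99.6 FPKM in CON 1 to 138 FPKM in CON 2, and its group means were 117 and 122 FPKM. Without Hist2h2bb the corrected sum ranged 1.83-fold, from 62.1 FPKM in CON 1 to 114 FPKM in CON 2. The part of cell makeup and RNA quality in this order was not tested.

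**Figure D4:**
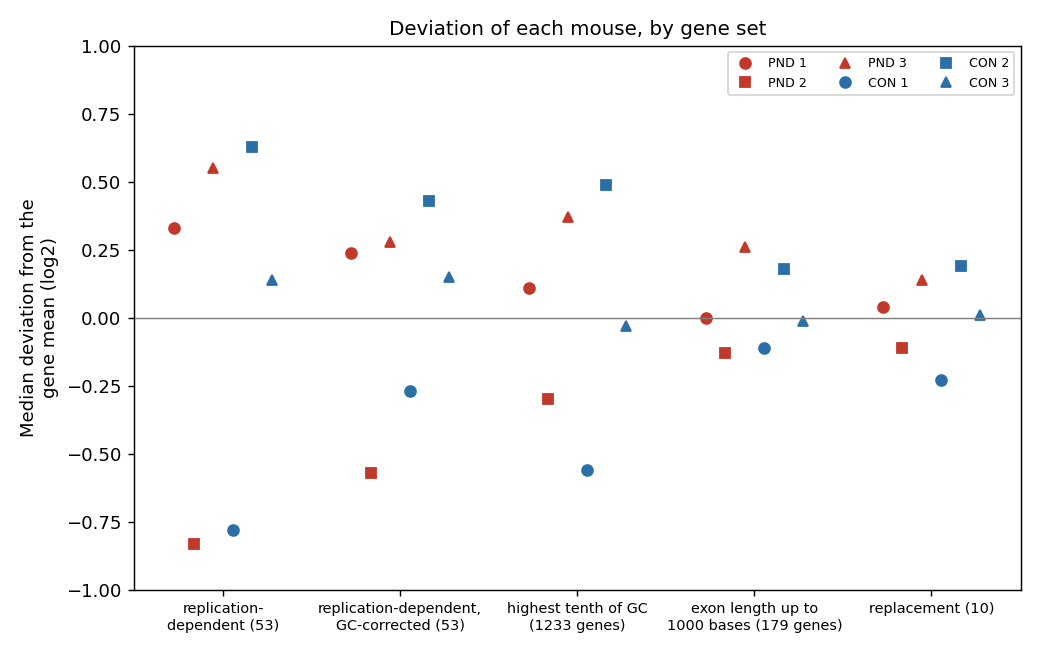
Median deviation of each mouse from the gene mean on the log2 scale, for the replication-dependent members before and after GC correction, 2 sets of other genes and the replacement members. CON 1 and PND 2 lie lowest in the 5 sets plotted, and the corrected replication-dependent deviations run from -0.57 to 0.43 in place of -0.83 to 0.63.

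The H3 family was the one whose summed level did not overlap between the groups. It was 3.88, 4.05 and 5.05 FPKM in PND and 6.35, 7.64 and 6.65 FPKM in CON, a log2 difference of -0.68. None of the 8 H3 members passed an unadjusted p of 0.05. That the groups did not overlap rested on Hist2h3c1 (ENSMUSG00000093769, chr3:96246685-96248509), named here because of its values. It had 0.559, 3.48 and 0.644 FPKM in PND and 4.54, 0.0670 and 1.30 FPKM in CON, so it was highest in CON 1 and PND 2, the mice in which most of the class was low. Without it, the H3 sum was 3.32, 0.571 and 4.41 FPKM in PND and 1.80, 7.57 and 5.36 FPKM in CON, and the groups overlapped, with a log2 difference of -1.04.

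All 1825 bases of Hist2h3c1 lie within exons of Gm20634, a processed transcript on the same strand that also overlaps 529 bases of the H2A gene Hist2h2aa1. Gm20634 was at 1.42, 0.132 and 0.490 FPKM in PND and 0.0840, 2.88 and 1.02 FPKM in CON. It was lowest in CON 1 and PND 2, where Hist2h3c1 was highest, and highest in CON 2, where Hist2h3c1 was lowest. Hist2h2aa1 had 0.193, 2.16 and 7.45 FPKM in PND and 1.82, 1.89 and 9.96 FPKM in CON, and it was lowest in PND 1, where Gm20634 was the second highest. All 586 bases of Hist2h2aa1 also lie antisense to Gm20633, which was at 0.246 to 2.31 FPKM. How the reads of this locus were divided between these genes was not tested. The log2 fold change of Hist2h3c1 was 0.23 with an interval of -2.59 to 3.05, and that of Hist2h2aa1 was -0.98 with an interval of -3.73 to 1.77.

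Hist1h3i, another H3 gene named because of its values, was at 0.550, 0 and 0.518 FPKM in PND and 0.325, 2.69 and 1.35 FPKM in CON. PND 1 and PND 3 were above CON 1, so the groups overlapped, and the gene had 18.0 estimated fragments. Its difference of -1.81 (95% interval -3.95 to 0.34) passed the cut-off after GC correction (-1.92).

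**Figure D5:**
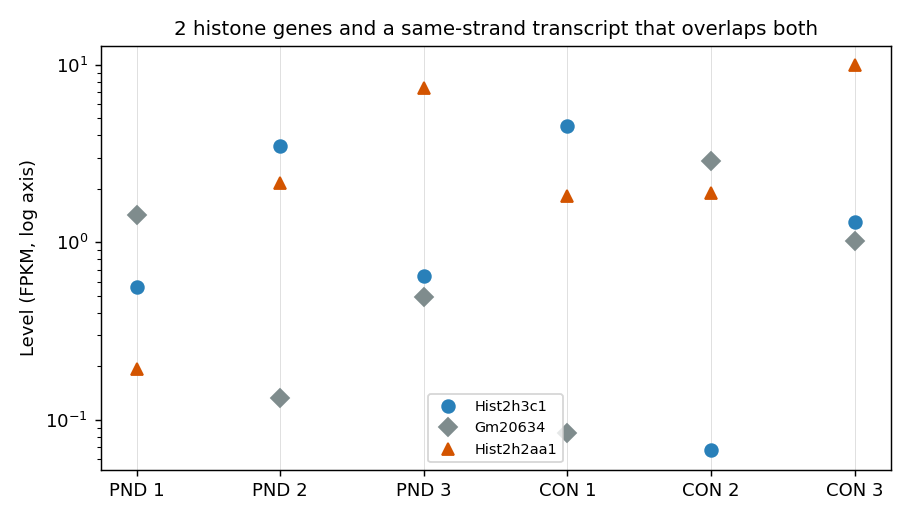
Level of Hist2h3c1, Hist2h2aa1 and the same-strand transcript Gm20634, which overlaps both, in each mouse, as FPKM on a log axis. Hist2h3c1 is at 4.54 FPKM in CON 1 where Gm20634 is at 0.0840 FPKM, and at 0.0670 FPKM in CON 2 where Gm20634 is at 2.88 FPKM.

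The genes that process histone mRNA and carry histone proteins were examined as lists. Of 20 tested genes for histone mRNA transcription and 3′ end processing, 8 were higher and 12 lower, none with p below 0.05 (limma). The highest of them were Tut7, a uridylyltransferase of histone mRNA decay, at a mean of 23.4 FPKM, and Snapc1, of the snRNA-activating complex, at 18.2 FPKM. Of 31 tested histone chaperones and exchange factors, 18 were higher and 13 lower, none with p below 0.05, and the nucleosome assembly genes Nap1l5 (119 FPKM) and Nap1l2 (69.1 FPKM) led the list.

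The S phase and mitosis genes were at low levels in both groups. Of 22 tested, 6 were higher and 16 lower in PND, again none with p below 0.05. Their summed level was 28.2, 29.6 and 27.0 FPKM in PND and 31.7, 28.4 and 27.9 FPKM in CON, and it was highest in CON 1 and PND 2, where the replication-dependent histone sum was lowest. It was led by Rrm1 (6.49 FPKM), a subunit of ribonucleotide reductase, and Pcna (4.09 FPKM), the sliding clamp of DNA synthesis and repair. The proliferation markers Mki67 and Top2a, named because of their values, had means of 0.332 and 0.137 FPKM. Top2a was at 0.0840, 0.0820 and 0.0890 FPKM in PND and 0.162, 0.183 and 0.220 FPKM in CON, which did not overlap (log2 fold change -0.63 ± 0.37). The replicative helicase genes, also named because of their values, were divided. Mcm4, Mcm6 and Mcm7 were higher in every PND mouse than in any CON mouse, by 0.29 ± 0.16, 0.43 ± 0.25 and 0.30 ± 0.24 on the log2 scale. For Mcm2, Mcm3 and Mcm5 the groups overlapped, with log2 fold changes of 0.01, 0.15 and -0.14. No gene of the list besides Top2a, Mcm4, Mcm6 and Mcm7 had non-overlapping groups (beside 3.78% of all genes with PND above and 3.88% with CON above).

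The cell types of the tissue were checked by marker lists, given as the range of the summed level. Neuron markers (Snap25 at a mean of 490 FPKM and Syt1 at 117 FPKM led them) were at 726 to 816 FPKM in PND and 769 to 855 FPKM in CON, and cortical layer markers, led by Rorb and Tle4, at 33.3 to 38.4 FPKM over all mice. Those of astrocytes (Slc1a3, Gja1) ranged from 163 to 182 FPKM, of oligodendrocytes (4 markers, led by Mobp) from 128 to 153 FPKM, of their precursors (Pdgfra, Olig1) from 8.83 to 16.5 FPKM, of microglia (P2ry12, Csf1r) from 14.4 to 24.2 FPKM, of endothelium (Flt1, Cdh5) from 13.1 to 16.8 FPKM and of neural progenitors and neuroblasts (Sox11, Dcx) from 13.2 to 20.0 FPKM. The precursor sum was lowest in PND 2 and CON 1 (8.83 and 10.6 FPKM) and highest in CON 2. The endothelium sum was low and high in the same mice (13.4, 13.1 and 16.8 FPKM). So were the neuron genes Slc17a7 (27.7, 23.6 and 73.8 FPKM) and Rbfox3 (6.97, 6.19 and 11.5 FPKM). Snap25, Syt1 and Gad1 were instead highest in CON 1, and Gad2 was lowest in CON 2. Slc17a7, Rbfox3, Gad1 and Gad2 are named because of their values. The part of these cell types in the histone levels was not tested. The oligodendrocyte sum, most of which was Mobp, was highest in PND 2 (153 FPKM) and lowest in PND 3 (128 FPKM). The other markers in it, named because of their values, ran otherwise. Mbp and Mag were lowest in CON 1 (5.25 and 2.315 FPKM) and next in PND 2 (5.97 and 2.70 FPKM), and highest in CON 2. Mog was lowest in PND 2 (5.39 FPKM). Choroid plexus markers (Kl, Ttr) summed to 0.677 to 0.861 FPKM in PND and 0.453 to 0.664 FPKM in CON, which did not overlap, and none of the 5 was above 0.639 FPKM in any mouse. Their part in the histone levels was not tested. Blood markers (Hbb-bs, Hba-a1) reached 2.76 FPKM in PND 1 alone. Of 42 markers tested, none passed the cut-off, and 3 had an unadjusted limma p below 0.05, beside 3.13% of all genes. These 3, named because of their values, were P2ry12 and the astrocyte gene Aqp4, with log2 fold changes of -0.76 ± 0.21 and -0.36 ± 0.13, and the astrocyte gene Gfap, with 0.66 ± 0.15. The adjusted p was 1.0 for each (limma), their groups did not overlap, and their part in the histone levels was not tested. The direction was divided within the microglia list and within the astrocyte list. In each, 3 of 5 tested markers were higher in PND and 2 lower.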

How the data were processed

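Prefrontal cortex RNA of 6 mice was studied, with groups from the treatment labels and replicate numbers from the titles. Per the methods, the authors removed ribosomal RNA, filtered reads with Seqtk, aligned with HISAT2, counted with StringTie, scaled by TMM and deposited FPKM. The submitters' processing notes also list Bowtie 0.12.2, mm8 and mm9 with no role given. Strand use and annotation were not given in the sources used here. Identifiers were joined to GENCODE M21 (GRCm38), which held 20877 of 21006, and to RefSeq promoters.

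PND was compared with CON by limma 3.58.1 in R 4.3.3 (lmFit, eBayes with trend) on log2(FPKM + 0.1) over the 18185 genes whose mean reached 0.1 FPKM, with Benjamini-Hochberg adjustment over all of them. Of the members, 60 of 64 passed this filter; Hist1h2br, Hist1h2ap, Hist1h2bp and Hist1h1t did not. Fold changes of low genes depend on the pseudocount: they are drawn toward 0, but where some mice are listed at 0 they can exceed the fold of the group means. Fragments were estimated from the steps of low values (41.6% to 44.8% lay within 0.05 of a whole number, against 10% without steps). Intervals cover the spread between mice, and floors only the counting error of the group listed at 0. GC correction was a loess fit per mouse with a span of 0.3. The fit was tested on simulated data. Other values were computed in Python 3.11.15.

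The genes named were the replacement members with a mean of at least 1 FPKM, the 12 replication-dependent members with the highest means, the 6 with the smallest p, any past the cut-off, and the 2 highest of each gene list (1 marker is not reported here); others are marked as named because of their values. The members and lists were chosen with earlier results of these data known.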

Additional observations from a re-analysis of the deposited data

How the results depend on the processing

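The number of members past the cut-off (2) was 0 with a pseudocount of 1 and with a minimum mean of 1 FPKM, 1 without the trend, with the replicate block or by voom on estimated fragments, 4 after GC correction and 6 when block and GC correction were combined. It was 2 to 7 when a mouse was left out, with 7 without CON 1. The number with an unadjusted p below 0.05 (3) was 1 with a minimum mean of 1 FPKM, 5 with quantile normalization, 5 with GC correction (7 if the replicate block was added), and 2 to 9 when a mouse was left out. None reached an adjusted p below 0.05 (limma) under any alternative run. All genes past the cut-off (241) numbered 25 with a pseudocount of 1, 59 with a minimum mean of 1 FPKM and 240 to 402 when a mouse was left out, with 402 without CON 2. Same-numbered mice did not deviate together (correlations of -0.0487, -0.451 and 0.0274), so the block was not used.

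When a mouse was left out, the log2 difference of the replication-dependent sums (0.01) ran from -0.30 to 0.27, that of the replacement sums (0.07) from 0.01 to 0.15, and that of the H3 sums (-0.68) from -0.79 to -0.60. Without Hist2h3c1, chosen after seeing the data, the H3 difference was -1.04 with overlapping groups. Among the members named in the text, the sign turned with GC correction for H2afx (-0.02, and -0.02 with the block added) and with a pseudocount of 1 for Hist2h3c1 (-0.08). It also turned, when a mouse was left out, for H3f3a (-0.19 to 0.09), H2afx (-0.14 to 0.49), Hist1h4d (-0.60 to 0.48), Hist1h2bc (-0.84 to 0.44), Hist1h4b (-0.62 to 0.62), Hist2h4 (-0.25 to 0.58), Hist2h2ac (-1.38 to 0.16), Hist2h2aa1 (-2.05 to 0.29), Hist1h4n (-0.44 to 1.10), Hist1h1d (-0.65 to 0.34), H2afz (-0.49 to 0.19), H1fx (-0.42 to 0.52) and Hist2h3c1 (-1.08 to 1.32). The cause was not tested. Depth limits the low members, 20 of 53 replication-dependent members having at most 18 estimated fragments in all.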
